A study of Homo sapiens with 6 samples.

Results

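Semaphorins, their plexin and neuropilin receptors, and the neuropilin-like DCBLD proteins form a gene family of guidance signalling, and its transcripts were followed here in SW480 cells, an established line from a human colorectal adenocarcinoma. The members were fixed by symbol as 20 semaphorins, 9 plexins, 2 neuropilins and 2 DCBLD genes, and all 33 were found among the 63677 gene identifiers of the count tables. The cells carried a lentiviral, doxycycline-inducible vector for either GFP, green fluorescent protein, or POU5F1B, the retrogene paralog of POU5F1/OCT4. According to the study's methods the vector adds an HA tag and transduced cells were selected with puromycin. According to the sample records, every culture, controls included, received 1 µg/mL doxycycline for 72 h before harvest. The study's methods give a lower dose where they describe inducing the overexpression. In each of the 2 groups, 3 polyA RNA libraries were made. No source says whether the libraries of a group came from separate transductions or cultures, so p-values measure only the spread between these samples.

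Semaphorins are ligands that steer cell movement, adhesion and vessel growth as well as axons. The class 3 proteins are secreted, classes 4 to 6 span the membrane, and SEMA7A is held by a lipid anchor from which it can be shed. Plexins are the signalling receptors, with a GTPase-activating domain inside the cell that acts on R-Ras and Rap proteins. Most secreted semaphorins reach A-type plexins through NRP1 or NRP2, which also bind vascular endothelial growth factors, while DCBLD1 and DCBLD2 share the extracellular domain types of neuropilins and are less well understood. In colorectal tumors these genes are expressed by the cancer cells as well as by the surrounding vessels and stroma.

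Library depth ranged from 10767947 to 12787637 counts. POU5F1B itself had 6, 5 and 1 counts in GFP replicates 1 to 3 against 15027, 11393 and 1458 in POU5F1B replicates 1 to 3. Every library thus matched its label, with POU5F1B replicate 3 far below the other libraries of its group. Both replicate 3 libraries stood apart. The biological coefficient of variation, the spread between libraries beyond counting noise, was 8.03% between GFP replicates 1 and 2 but at least 40.9% between either of them and GFP replicate 3. It was 9.84% between POU5F1B replicates 1 and 2 and at least 21.1% between either and POU5F1B replicate 3. Fold changes are therefore given for all 6 libraries and, for most members, also for replicates 1 and 2 only. The 8 epithelial markers were all expressed (summed level 6366 to 9580 CPM, counts scaled to equal library sizes). The 5 leukocyte markers summed to at most 1.85 CPM, 3 endothelial markers to at most 6.53 CPM and 4 neuronal and glial markers to at most 7.48 CPM. CDH5 and PTPRC were at 0 to 2 counts and ELAVL3 and SOX10 at 0. Most of the endothelial sum was VWF, with 71, 68 and 13 counts in GFP and 81, 52 and 30 in POU5F1B libraries. Most of the neuronal and glial sum was SYN1, with 80, 67 and 86 counts in GFP and 30, 21 and 83 in POU5F1B libraries. The leukocyte marker CD14 had at most 16 counts per library. The 5 fibroblast markers summed to between 13.3 and 169.8 CPM. COL3A1 was at 0, DCN at 3 counts or fewer, and LUM at 34 and 5 counts in the GFP and POU5F1B replicate 3 libraries and 0 elsewhere, whereas COL1A1 reached 1681, 1553 and 194 counts with GFP but 86, 60 and 114 with POU5F1B (replicates 1 to 3). The epithelial markers did not move as 1 group. The adhesion gene CDH1 had 400, 396 and 836 counts in GFP and 2085, 1711 and 1181 in POU5F1B libraries, whereas EPCAM, with 1030, 1174 and 5962 counts in GFP against 4073, 3569 and 3029 in POU5F1B libraries, was highest in GFP replicate 3, and KRT8, KRT18, KRT19, KRT20, VIL1 and CDX2 overlapped between groups. What part these differences have in the results that follow was not tested, and in bulk RNA a change in the share of a kind of cell and a change of RNA per cell cannot be told apart.

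Receptor transcripts led the family in SW480 cells. Per kilobase of exon, the scale on which genes can be compared with each other, the mean level over the 6 libraries was 26.8 CPM per kb for PLXNB2, the receptor of several class 4 semaphorins, 25.6 for DCBLD2, 24.9 for PLXNA1, a partner of neuropilins, and 13.6 for PLXND1, which binds SEMA3E. The first 3 did not separate: the libraries spanned 20.1 to 33.0 CPM per kb for PLXNB2, 16.7 to 35.1 for DCBLD2 and 14.1 to 37.3 for PLXNA1. Among the ligands the mean was highest for SEMA3B at 8.77 CPM per kb, close to NRP2 at 8.66 and PLXNB1 at 7.66, followed by SEMA4C at 6.05, NRP1 at 5.71 and SEMA7A at 5.56. This order did not hold in each library: SEMA7A exceeded SEMA3B in POU5F1B replicate 1 (9.66 against 8.11 CPM per kb) and replicate 2 (8.05 against 6.12), and SEMA3A did so in GFP replicate 3 (17.4 against 5.51). With the longest transcript as the length, DCBLD2 came first at 47.2 CPM per kb and NRP2, at 18.1, came before SEMA3B, at 15.4. The filter on low counts passed 24 members. The other 9 were SEMA3A, SEMA3C, SEMA3D, SEMA3E, SEMA4A, SEMA5B, SEMA6A, SEMA6D and PLXNA4. Of these, SEMA5B had 1 count in all 6 libraries together and SEMA6D at most 1 count per library, which is under the floor of 3 counts (0.235 to 0.279 CPM), so neither could be detected at this depth. SEMA4A had 0 to 5 counts and PLXNA4, a further receptor of class 3 and 6 ligands, 1 to 12 counts per library, with overlapping groups.

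**Figure D1:**
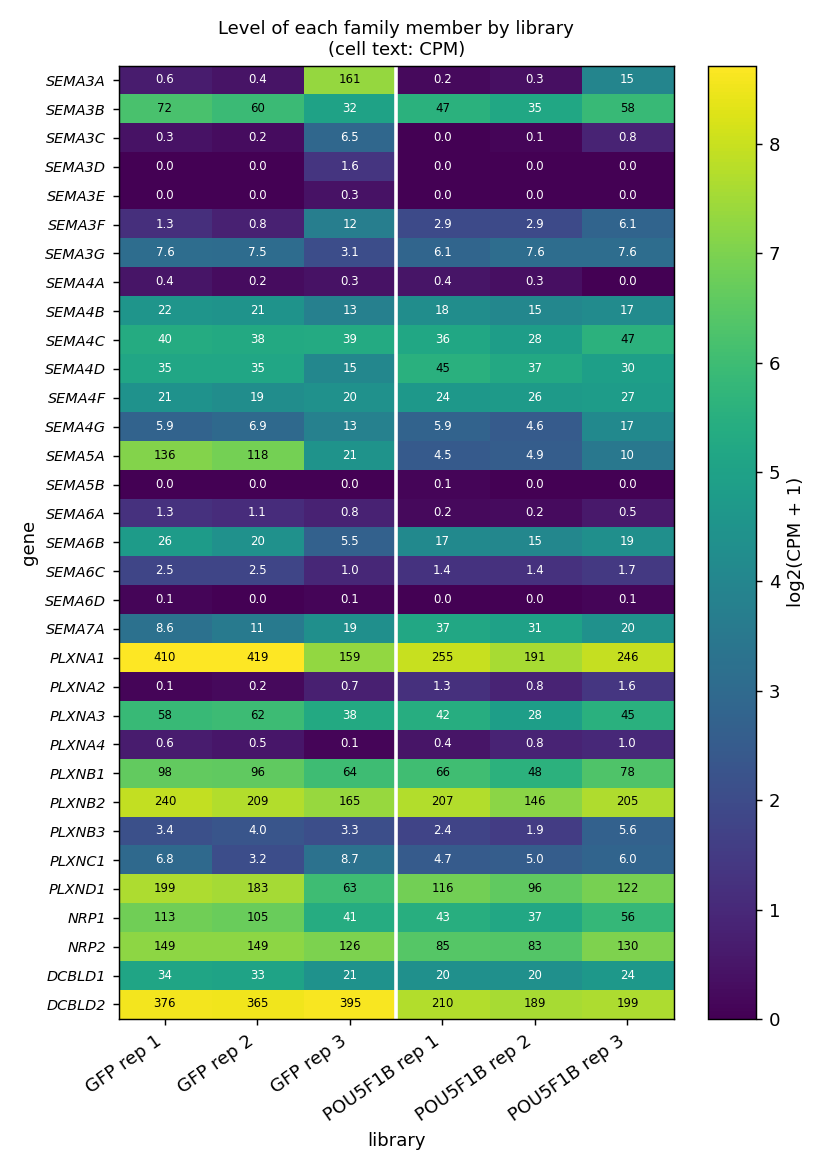
Level of the 33 family members (rows) in each of the 6 libraries (columns); colour gives log2(CPM + 1) and the cell text the CPM. DCBLD2 stands at 365 to 395 CPM in the GFP libraries and 189 to 209.6 CPM in the POU5F1B libraries, and SEMA3A is high in GFP replicate 3 (161 CPM), lower in POU5F1B replicate 3 (14.6 CPM) and under 1 CPM in the other 4 libraries.

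To ask which members differ between GFP- and POU5F1B-overexpressing cells, each was compared in a fit over all 14286 tested genes with limma voom. With all 6 libraries, 0 of the 24 tested members passed the threshold of an adjusted p under 0.05 and a fold change above 2, and neither did any other gene (background 0%). At an unadjusted p under 0.05 there were 6 members, or 25% (background 11.9%). They were SEMA7A, SEMA4F and PLXNA2, which were higher with POU5F1B (3 members, background 6.07%), and DCBLD2, NRP2 and SEMA5A, which were lower (3 members, background 5.82%). The edgeR quasi-likelihood test also called 0 members and DESeq2 called 1, SEMA5A (background 1.62%). The groups did not overlap for 5 members, or 20.8%, close to the background of 19.4%, with 3 higher (background 10.2%) and 2 lower (background 9.24%). The median log2 fold change was -0.16 over the tested members and -0.02 over all tested genes, with 17 members below 0 (background 53.1%) and 7 above. With replicates 1 and 2 only, 5 members passed with limma voom (20.8%, background 8.36%). SEMA3F, SEMA7A and PLXNA2 were the 3 higher ones (background 3.21%) and NRP1 and SEMA5A the 2 lower ones (background 5.15%). That median was then -0.62, against -0.01 over all tested genes, and 18 members were below 0 (background 50.5%). GFP replicate 3 decided most of this difference between settings: with that library alone left out, SEMA7A, PLXNA2, NRP1 and SEMA5A passed (background 4.16%). PLXNA2 entered the test only through its POU5F1B libraries, so its direction was partly fixed by the filter. The counts of higher members given here include it.

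**Figure D2:**
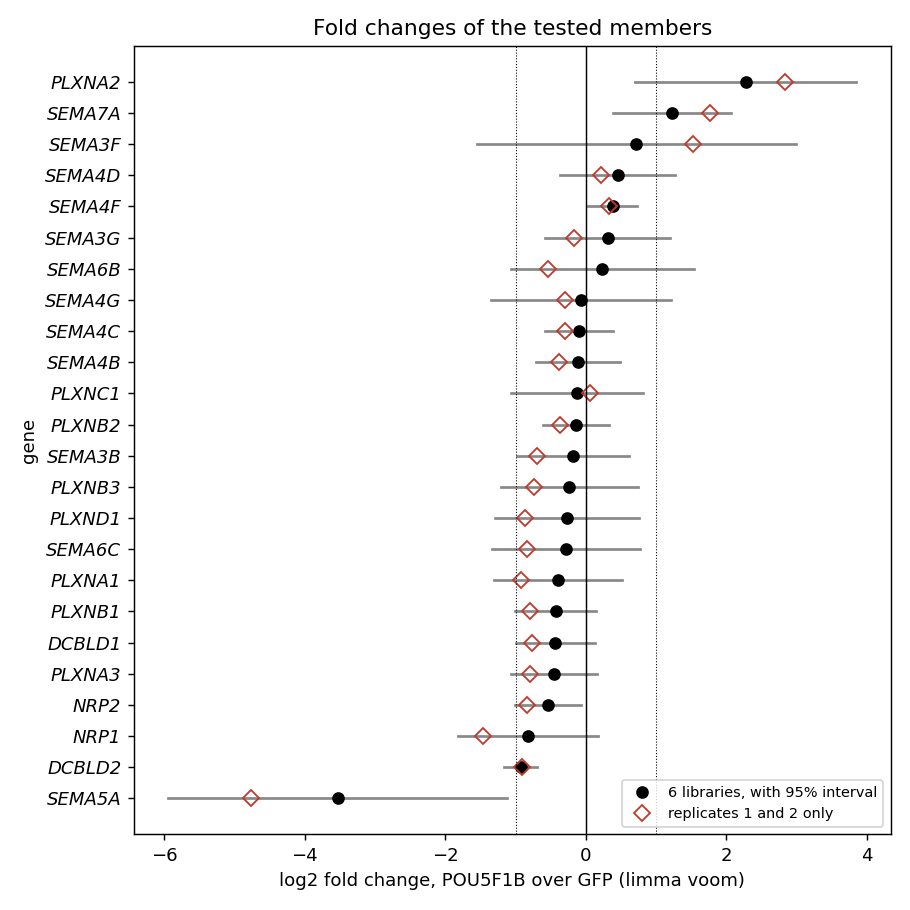
Log2 fold change of the 24 tested members, POU5F1B over GFP, from limma voom with all 6 libraries (filled circles, bars give the 95% interval) and with replicates 1 and 2 only (open diamonds); dotted lines mark a 2-fold change. DCBLD2 lies at -0.93 with the shortest interval and SEMA5A at -3.53, and most plexins shift to the left in replicates 1 and 2.

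The neuropilin-like genes were led by DCBLD2 (ENSG00000057019; GRCh37 chromosome 3, 98514785 to 98620539, minus strand), a transmembrane protein with CUB, LCCL and coagulation factor domains that is studied in vascular and tumor cells. DCBLD2 had 376, 365 and 395 CPM in GFP replicates 1 to 3 and 209.6, 189 and 199 CPM in POU5F1B replicates 1 to 3. The groups were far apart, with each library within a few percent of its own group. The means were 379 ± 15.2 CPM with GFP and 199 ± 10.5 CPM with POU5F1B (SD, n = 3 each), and the log2 fold change was -0.93 ± 0.10 (SE; 95% interval -1.16 to -0.70). Its limma voom adjusted p was 0.122, and since the difference amounts to 1.90-fold, DCBLD2 could not pass the 2-fold limit whatever its p. Unlike most members, DCBLD2 had a fold change that depended little on the replicate 3 libraries, whereas its adjusted p did depend on them. Replicates 1 and 2 only gave -0.91, with a limma voom adjusted p of 6.59e-06. The log2 fold change lay between -0.96 and -0.80 over 17 alternatives (adjusted p 2.55e-13 to 0.908). In GFP replicate 3 the DCBLD2 level was 1.07 times the mean of GFP replicates 1 and 2, and in POU5F1B replicate 3 it was 1.00 times the corresponding mean. The related gene DCBLD1, on chromosome 6, whose role is little known, had 34.0, 32.5 and 20.8 CPM in GFP replicates 1 to 3 and 19.8, 19.6 and 24.1 CPM in POU5F1B replicates 1 to 3. Its groups overlapped, as GFP replicate 3 lay below POU5F1B replicate 3. At -0.44 ± 0.23 (log2 fold change and SE) the difference was within the replicate spread (adjusted p = 0.513, limma voom), and it was -0.76 in replicates 1 and 2 only (adjusted p = 0.00106).

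Both neuropilins tended to lower values with POU5F1B, with a library at odds in each case. NRP1 (ENSG00000099250; chromosome 10, 33466420 to 33625190) had 113, 105 and 40.9 CPM in GFP and 43.5, 36.5 and 55.5 CPM in POU5F1B replicates 1 to 3. GFP replicate 3 thus fell among the POU5F1B libraries, and the log2 fold change was -0.82 ± 0.42 (SE; adjusted p = 0.489, limma voom). A small part of its exons (4.87%) lies under an opposite-strand gene. Without either replicate 3 library NRP1 was 2.74-fold lower and passed (log2 fold change -1.46 ± 0.11 SE, adjusted p = 2.38e-06). NRP2 (ENSG00000118257; chromosome 2, 206546714 to 206662857) had 149, 149 and 126 CPM in GFP and 85.2, 82.6 and 130.2 CPM in POU5F1B replicates 1 to 3. Here POU5F1B replicate 3 reached the GFP range. The log2 fold change was -0.54 ± 0.20 (SE; adjusted p = 0.356, limma voom), and -0.84 in replicates 1 and 2 only (adjusted p = 2.22e-05), short of the 2-fold limit.

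**Figure D3:**
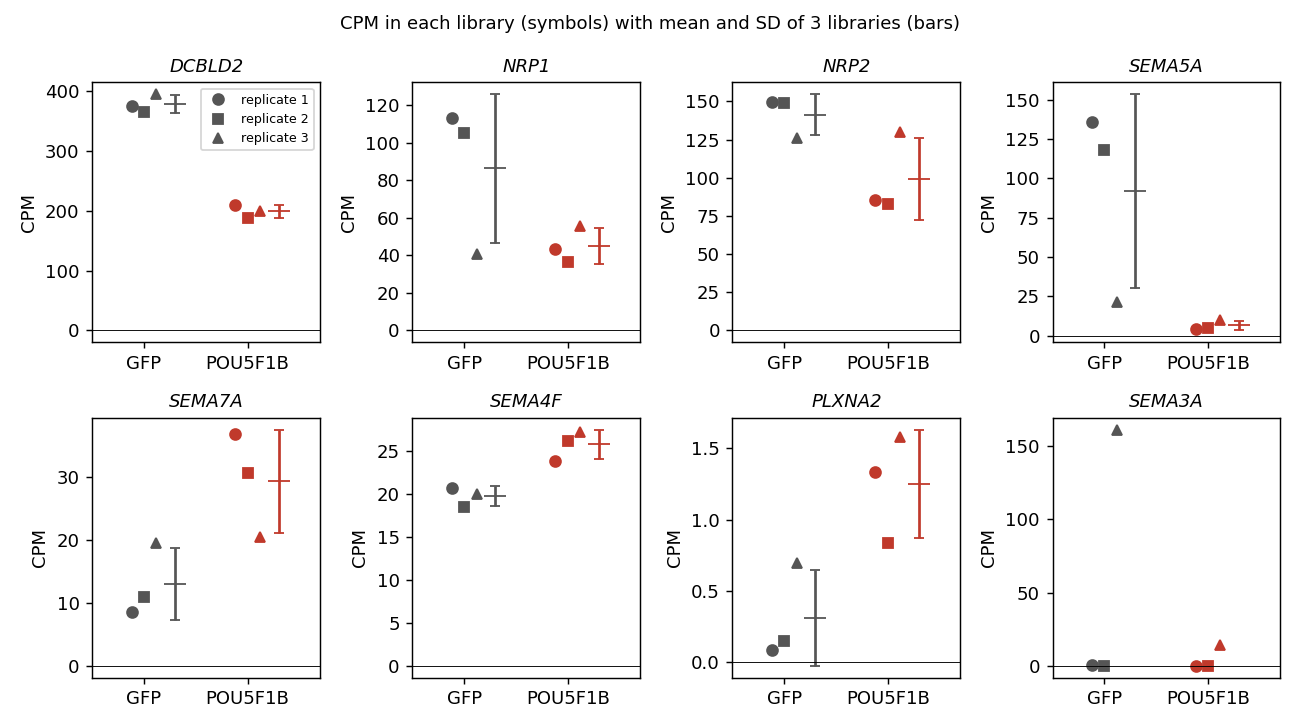
CPM of 8 members in each library (circle, replicate 1; square, replicate 2; triangle, replicate 3; grey, GFP; red, POU5F1B), with the mean and SD of 3 libraries beside them except for SEMA3A. The DCBLD2 groups do not overlap (365 to 395 against 189 to 209.6 CPM), whereas for NRP1 and SEMA5A GFP replicate 3 lies near the POU5F1B libraries.

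Among the ligands, SEMA5A showed the largest difference of the tested members. SEMA5A (ENSG00000112902; chromosome 5, 9035145 to 9546187, minus strand) is a membrane protein whose thrombospondin repeats bind proteoglycans, and it can act through B-type plexins. It had 136, 118 and 21.2 CPM in GFP and 4.48, 4.91 and 10.2 CPM in POU5F1B replicates 1 to 3. All GFP libraries were above all POU5F1B libraries, but GFP replicate 3 held only 0.167 times the mean of the other GFP libraries. The log2 fold change was -3.53 ± 1.01 (SE; 95% interval -5.94 to -1.12), or 11.6-fold lower, with a limma voom adjusted p of 0.290. In replicates 1 and 2 only, SEMA5A was 27.1-fold lower (adjusted p = 1.24e-08, limma voom). The fibroblast markers COL1A1, given above, and PDGFRB, with 335, 377 and 83 counts in GFP against 111, 83 and 150 in POU5F1B libraries, were likewise high in GFP replicates 1 and 2 and low in the other 4 libraries, although COL3A1 and DCN were at or near 0 and LUM had counts only in the replicate 3 libraries. Their part in the SEMA5A result was not tested.

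SEMA7A (ENSG00000138623; chromosome 15, 74701630 to 74726299, minus strand), which binds PLXNC1 and integrins that contain ITGB1, went in the opposite direction. It had 8.59, 10.97 and 19.4 CPM in GFP and 36.7, 30.6 and 20.5 CPM in POU5F1B replicates 1 to 3. The groups did not overlap, although both replicate 3 libraries nearly met. SEMA7A was 2.33-fold higher with POU5F1B (log2 fold change 1.22 ± 0.35 SE; 95% interval 0.38 to 2.06; adjusted p = 0.292, limma voom), and 3.41-fold higher in replicates 1 and 2 only (adjusted p = 1.83e-05). Its plexin receptor PLXNC1 was low in all libraries, at 3.20 to 8.70 CPM, with overlapping groups.

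Class 4 semaphorins, which mostly signal through B-type plexins, differed little. SEMA4F had 20.7, 18.5 and 20.0 CPM in GFP and 23.8, 26.1 and 27.2 CPM in POU5F1B replicates 1 to 3. The groups were close but did not overlap, and this difference of 1.30-fold was nearly the same with and without the replicate 3 libraries (log2 fold change 0.38 ± 0.15 SE and 0.34 ± 0.14 SE; adjusted p = 0.383 and 0.100, limma voom). SEMA4D, the ligand of PLXNB1, had a log2 fold change of 0.46 ± 0.34 (SE), SEMA4B of -0.11 ± 0.25 and SEMA4C of -0.10 ± 0.20, none beyond the spread between replicates (adjusted p 0.636 to 0.896, limma voom). In replicates 1 and 2 only these were 0.22, -0.38 and -0.30 (adjusted p 0.0893 to 0.225). SEMA4G, with a log2 fold change of -0.07 ± 0.54 (SE), shared 28.05% of its exon length with genes on the opposite strand, MRPL43 among them, and its counts are uncertain because the strand setting of the counting is not stated. In class 6, SEMA6B had 26.3, 20.3 and 5.48 CPM in GFP and 15.3 to 19.5 CPM in POU5F1B libraries, and SEMA6C 0.957 to 2.53 CPM over all libraries; with all libraries neither differed beyond the replicate spread (log2 fold change 0.24 and -0.28; adjusted p = 0.896 and 0.837, limma voom). In replicates 1 and 2 only SEMA6B was lower (-0.54, adjusted p = 0.0303), the opposite sign, and SEMA6C was at -0.84 (adjusted p = 0.0848). SEMA6A, too low for the test, had 16, 15 and 9 counts in GFP and 2, 2 and 6 in POU5F1B replicates 1 to 3, so that its groups did not overlap. Without a filter its log2 fold change was -1.92 ± 0.56 (SE; adjusted p = 0.353, limma voom).

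Several secreted class 3 semaphorins stood out in the replicate 3 libraries. SEMA3A (ENSG00000075213; chromosome 7, 83585093 to 84122040), the classical repulsive ligand of NRP1 and A-type plexins, had 7, 5 and 1849 counts in GFP replicates 1 to 3 and 2, 3 and 175 in POU5F1B replicates 1 to 3. It was therefore at a few counts in 4 libraries and the most counted semaphorin of GFP replicate 3. It failed the low-count filter, which asks for expression in 3 libraries, and without a filter its log2 fold change was -1.74 ± 2.62 (SE; adjusted p = 0.801, limma voom). Its neighbours SEMA3C, SEMA3E and SEMA3D, at 80371854 to 84816372 on the same chromosome, had 75, 4 and 18 counts in GFP replicate 3, 10, 0 and 0 in POU5F1B replicate 3, and at most 4 in any other library. Of the other 3 protein-coding genes between them, PCLO and CACNA2D1 were also highest there. PCLO had 351 counts in GFP replicate 3 and 50 to 109 in the remaining libraries, and CACNA2D1 had 32 and 0 to 6, whereas HGF had 0 in all 6. Over the whole table, 52 genes were under 1 CPM in both groups' replicates 1 and 2 and at least 10 CPM in GFP replicate 3, and SEMA3A was the 1 member of the family among them.

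SEMA3F, which prefers NRP2, had 1.26, 0.762 and 12.4 CPM in GFP and 2.91, 2.87 and 6.08 CPM in POU5F1B replicates 1 to 3. It was higher with POU5F1B in replicates 1 and 2 only (2.87-fold, adjusted p = 0.00969, limma voom), yet GFP replicate 3 exceeded every other library, and with all 6 libraries the log2 fold change was 0.72 ± 0.95 (SE; adjusted p = 0.800) and turned to -0.27 with edgeR. SEMA3B had 31.8 to 72.4 CPM and SEMA3G 3.13 to 7.60 CPM over the 6 libraries, with overlapping groups in both cases (log2 fold change -0.18 and 0.31; adjusted p = 0.867 and 0.776, limma voom). In replicates 1 and 2 only SEMA3B was at -0.69 (adjusted p = 0.00334), under the 2-fold limit, and SEMA3G at -0.17 (adjusted p = 0.589). As POU-domain proteins of the OCT family are known for binding the octamer ATGCAAAT, this motif of 8 letters was searched on both strands in RefSeq promoter windows, which run from 250 bases before to 50 after a gene start (GRCh38.p14). Windows were found for 29 members, 50 windows in all, and 1 of them (2.0%) held the octamer, against 1.77% of all 35116 windows. It belongs to SEMA3F on chromosome 3 and is shown because no other member window had a match, those at the other SEMA3F starts included. The sequence, on the plus strand at chr3:50154996-50155023, has the octamer in capitals, starting 52 bases before the annotated start of its own window.
SEMA3F: gggctgcgctATGCAAATgtcgcccacg
A match is a description of the sequence and says nothing of binding in these cells. The paper found POU5F1B mainly in the cytoplasm and enriched in membranes, and its chromatin immunoprecipitation found no significant recruitment to the genome.

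With all 6 libraries, 7 of 8 tested plexins had lower fitted values with POU5F1B, and none passed the threshold with limma voom. PLXNA1 had 409.9, 419 and 159 CPM in GFP and 255, 191 and 246 CPM in POU5F1B replicates 1 to 3, so GFP replicate 3 lay below all POU5F1B libraries. PLXND1 showed the same layout, with 199, 183 and 63.3 CPM in GFP and 116, 95.6 and 122 CPM in POU5F1B replicates 1 to 3. The log2 fold changes were -0.40 ± 0.38 (SE) for PLXNA1 and -0.26 ± 0.43 (SE) for PLXND1 with all libraries (adjusted p = 0.706 and 0.844, limma voom), and -0.92 and -0.87 in replicates 1 and 2 only (adjusted p = 6.47e-05 and 5.94e-05), below 2-fold in size. PLXNB1, the SEMA4D receptor, and PLXNA3 had log2 fold changes of -0.43 ± 0.24 and -0.45 ± 0.26 (SE) with all libraries, and -0.79 and -0.80 in replicates 1 and 2 only. PLXNB2 was at -0.13 ± 0.20 (SE; adjusted p = 0.820, limma voom), and at -0.37 in replicates 1 and 2 only (adjusted p = 0.0567). PLXNA2 was the exception, with 1, 2 and 8 counts in GFP and 17, 9 and 19 in POU5F1B replicates 1 to 3. The groups did not overlap, but at no more than 1.58 CPM in any library PLXNA2 stayed among the scarcest plexins. Its log2 fold change was 2.27 ± 0.66 (SE, adjusted p = 0.294, limma voom). In replicates 1 and 2 only it was 2.83 and PLXNA2 passed (adjusted p = 0.00487, limma voom), with 1 and 2 counts in those GFP libraries. As PLXNA2 passed the low-count filter only through its POU5F1B libraries, neither the separation nor the call supports its direction. PLXNB3 shared 20.4% of its exon length with SRPK3 on the same strand, so its 21 to 67 counts per library are uncertain.

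GFP replicate 3 accounted for much of the spread in this family. Of the 24 tested members, 9 were below 0.5 times the mean of GFP replicates 1 and 2 in GFP replicate 3, compared with 10.6% of all tested genes, and 3 were above 2 times that mean, compared with 12.6%. The 9 were NRP1, SEMA3B, SEMA3G, SEMA4D, SEMA5A, SEMA6B, SEMA6C, PLXNA1 and PLXND1. In POU5F1B replicate 3, 0 members were below 0.5 times and 4 above 2 times the mean of replicates 1 and 2, compared with 2.72% and 4.02% of all tested genes. Across 14021 tested genes with a value, the shift of GFP replicate 3 went with GC content (Spearman's rho -0.43), and that of POU5F1B replicate 3 the other way (rho 0.33). These values describe libraries that share genes, and carry no p. The family is GC-rich, with a median of 59.6% over the tested members and 62.1% over those 9, against 48.5% over all tested genes. Of the 1974 tested genes with a GC content of at least 60%, 14.9% were more than 1 log2 unit lower in GFP replicate 3. Such a GC content was found for 12 of the 24 members and 5 of the 9. After a correction for GC content and transcript length fitted per library, 6 of the 24 members (25%) were below 0.5 times, against 8.62% of all tested genes; these were NRP1, SEMA5A, SEMA6B, SEMA6C, PLXNA1 and PLXND1, all among the 9, and the number of members past the threshold was again 0.

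**Figure D4:**
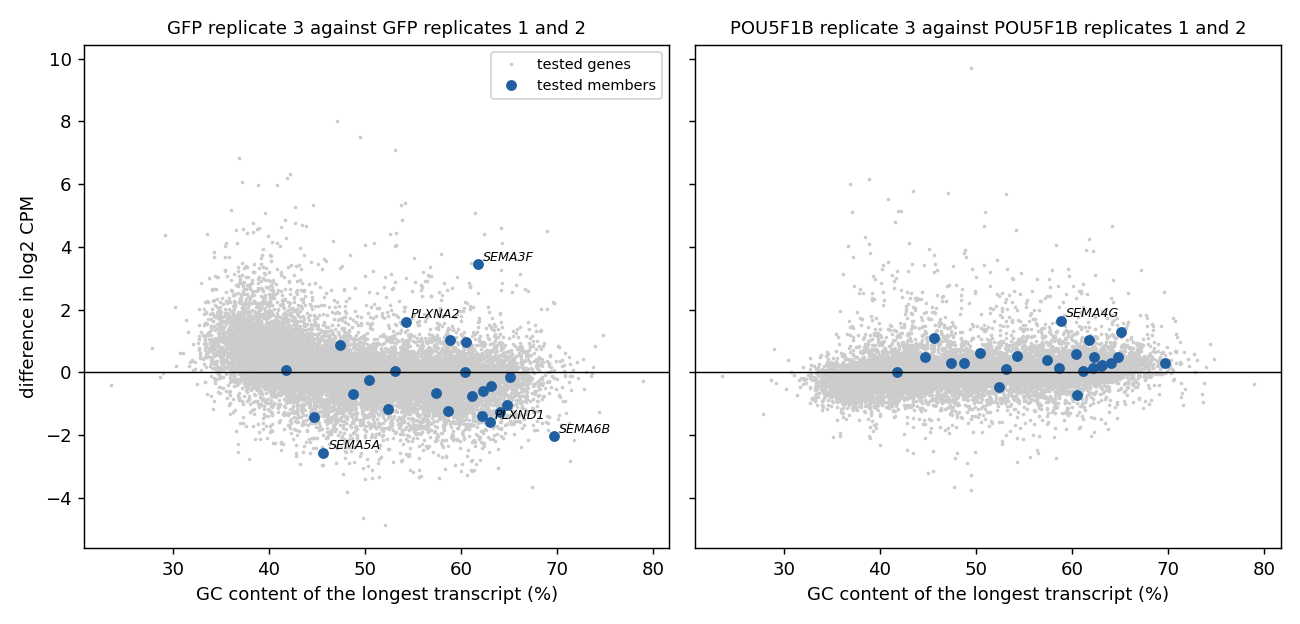
Difference in log2 CPM between replicate 3 and the mean of replicates 1 and 2 of its group against the GC content of the longest transcript, for GFP (left) and POU5F1B (right); grey points are tested genes, blue points the 24 tested members. In GFP replicate 3 the cloud slopes downward (rho -0.43) and SEMA5A and SEMA6B lie near its lower edge and SEMA3F near its upper edge.

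The partners of this pathway were taken from a list of 61 genes, of which 57 were tested. With limma voom and all libraries 0 passed the threshold, and with edgeR also 0, while DESeq2 called 1 (background 1.62%). At an unadjusted p under 0.05 there were 13, or 22.8% (background 11.9%). Of these, 8 were higher (background 6.07%) and 5 lower (background 5.82%) with POU5F1B. The median log2 fold change over the tested partners was -0.06. Alternative receptors held the clearest differences. ITGA1, which pairs with ITGB1 in a collagen-binding integrin that also recognises SEMA7A, had 152, 161 and 111 CPM in GFP and 6.37, 7.69 and 19.2 CPM in POU5F1B replicates 1 to 3. All POU5F1B libraries were far below all GFP libraries (log2 fold change -3.83 ± 0.38 SE; adjusted p = 0.122, limma voom). ITGB1 itself was lower by a smaller amount (-0.51 ± 0.12 SE; adjusted p = 0.235). FLT1, a growth factor receptor that works with neuropilins, had a log2 fold change of -1.85 ± 0.49 (SE), and DPYSL4, of the collapsin response mediators downstream of SEMA3A, of -1.29 ± 0.36 (adjusted p 0.261 and 0.285, limma voom). On the higher side, L1CAM, a co-receptor for SEMA3A, had a log2 fold change of 0.62 ± 0.15 (SE), MST1R, a receptor kinase that can associate with B-type plexins, of 0.66 ± 0.20, RRAS2 of 0.47 ± 0.17, RAC1 of 0.29 ± 0.10 and MICAL2, an actin-oxidising enzyme, of 0.28 ± 0.10 (adjusted p 0.240 to 0.353, limma voom). Of all 57 partners, 16 (28.1%) had groups that did not overlap (background 19.4%). In replicates 1 and 2 only the log2 fold change was -4.50 for ITGA1, -0.40 for ITGB1, -2.69 for FLT1, 0.71 for L1CAM and 0.94 for MST1R, and 8 of the 57 partners passed (14%, background 8.36%). The 1 higher gene (background 3.21%) was VEGFA, a growth factor that binds neuropilins (log2 fold change 1.20). The 7 lower ones (background 5.15%) were FLT1, ITGA1, TREM2, RND2, CRMP1, DPYSL3 and DPYSL4. With all 6 libraries the groups of FLT1, ITGA1 and DPYSL4 did not overlap, but those of TREM2, RND2, CRMP1 and DPYSL3 did. TREM2 had 33, 28 and 1 counts in GFP and 3, 0 and 15 in POU5F1B replicates 1 to 3. DPYSL3 had 203, 130 and 2660 counts in GFP and 39, 24 and 1143 in POU5F1B replicates 1 to 3.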

How the data were processed

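RNA-seq counts of 3 GFP and 3 POU5F1B libraries were used, grouped and numbered by their titles. The authors deposited 1 table of raw whole-number counts per library, made with HISAT2 on hg19 and featureCounts from uniquely mapped reads of a stranded mRNA kit, using an annotation of genes and transposable elements. The strand setting and annotation release are not given in the sources used here. The depth sets a floor of 3 counts, for counting error only.

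Genes passing filterByExpr of edgeR 4.0.16 (14286) were scaled by TMM and tested in R 4.3.3 with voom and limma 3.58.1 (moderated, two-sided, no block), and p-values were adjusted by Benjamini-Hochberg across these genes. The threshold, an adjusted p under 0.05 with a fold change above 2, is that of the study's methods. DESeq2 1.42.0 and edgeR were alternatives. Levels are CPM on TMM-scaled library sizes; per kilobase uses merged exons of a GENCODE annotation on GRCh37, the build of hg19. Symbols came from a gene name table (87.4% of identifiers matched; PECAM1 did not). On simulated counts for the 14286 genes, drawn with the spread seen over all replicates, voom recovered 172 of 200 genes changed 4-fold. It called 7 unchanged genes. The changed genes were taken only from genes above a minimum mean level, under which PLXNA2, SEMA6C, PLXNB3 and SEMA3F lay. The noise was drawn for each gene separately, so no simulated library stood apart as a whole, as GFP replicate 3 did. This recovery therefore does not tell how many real changes the 6-library fit could find. In that fit POU5F1B itself had an adjusted p of 0.252 (limma voom).

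Members and lists were chosen with earlier results of these data known. Every member may be named; values per library are given where groups do not overlap or the unadjusted p is under 0.05, and for NRP1, NRP2, DCBLD1, DCBLD2 and SEMA7A, and for others whose values were seen first; of the partners, the up to 5 higher and 5 lower with the smallest p, of which 1 lower gene is not reported here. The GC and length correction (natural splines, 5 degrees of freedom each) was chosen after seeing the data, as was the octamer search.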

Additional observations from a re-analysis of the deposited data

How the results depend on the processing

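The count of 0 members past the threshold held with edgeR, with scaling by upper quartile, total counts or DESeq2 size factors, with no filter, at least 10 counts in every sample, the replicate block and the GC and length correction. It was 1 with DESeq2 (1.62% of all tested genes), 5 with sample quality weights (7.54%), which weighted GFP replicate 3 at 0.111, and 5 with replicates 1 and 2 only (8.36%). Leaving out 1 library at a time gave 0 to 4, the 4 coming without GFP replicate 3 (4.16%). The members called were SEMA5A with DESeq2; SEMA3F, SEMA7A, PLXNA2, NRP1 and SEMA5A with quality weights and again with replicates 1 and 2 only; and SEMA7A, PLXNA2, NRP1 and SEMA5A without GFP replicate 3. The direction of PLXNA2 was partly fixed by the low-count filter. The members at an unadjusted p under 0.05 numbered 15 with quality weights and 19 with replicates 1 and 2 only. Across the fits leaving out a library they numbered 4 to 17, again highest without GFP replicate 3. For these fits the share of all tested genes under the same p was not taken, so the counts stand without a background. With limma voom and all 6 libraries that share was 11.9%. The median of the tested members was -0.62 with replicates 1 and 2 only. Of the partners, 1 passed with DESeq2 (1.62% of all tested genes) and 1 with no filter (0.015%). With quality weights 7 passed (7.54%), and with replicates 1 and 2 only 8 passed (8.36%). Across the fits leaving out a library 0 to 5 passed, the 5 coming without GFP replicate 3 (4.16%).

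The log2 fold change of POU5F1B was past the threshold under DESeq2 (11.24), quality weights (10.89), the replicate block (10.83) and replicates 1 and 2 only (11.18). Leaving out 1 library at a time gave 10.11 to 11.82, past the threshold without POU5F1B replicate 3. The filter on 10 counts in each sample removed it and PLXNA2. Over the tested members and alternatives, 365 log2 fold changes kept direction and side of the threshold, 15 came to pass the threshold and 27 changed sign. Some of the 365 had an adjusted p under 0.05 without a fold change above 2, such as DCBLD2 with DESeq2 (adjusted p = 2.55e-13). The sign changed with edgeR for SEMA3F (-0.27), SEMA4G (0.058) and SEMA6B (-0.021), with DESeq2 for SEMA3F (-0.25), SEMA4G (0.063) and SEMA6B (-0.030), with quality weights for SEMA3G (-0.15), SEMA6B (-0.38) and PLXNC1 (0.20), and with replicates 1 and 2 only for SEMA3G (-0.17), SEMA6B (-0.54) and PLXNC1 (0.063). Across the fits leaving out a library, values crossed 0 for SEMA3B (-0.53 to 0.058), SEMA3F (-0.087 to 1.88), SEMA3G (-0.11 to 0.55), SEMA4B (-0.36 to 0.035), SEMA4C (-0.28 to 0.080), SEMA4G (-0.62 to 0.28), SEMA6B (-0.44 to 0.66), PLXNB2 (-0.29 to 0.028), PLXNB3 (-0.68 to 0.050), PLXNC1 (-0.54 to 0.16) and PLXND1 (-0.80 to 0.026). The cause of these changes was not tested.

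The replicate numbers do not establish a pairing: deviations of same-numbered libraries from their group means correlated across genes at 0.242, 0.088 and 0.165, and not every library correlated best with its own number. With the replicate number as a block, 0 members passed, and the block changed no call of a member. In that fit 4 members had an unadjusted p under 0.05, and the share of all tested genes under this p was not taken. Per kilobase of the longest transcript in place of merged exons, levels were over 1.5 times higher for several members, among them DCBLD2 (25.6 to 47.2 CPM per kb), NRP2 (8.66 to 18.1), SEMA3B (8.77 to 15.4), NRP1 (5.71 to 11.2) and SEMA4C (6.05 to 10.04), so that DCBLD2 came before PLXNB2, NRP2 before SEMA3B and NRP1 before SEMA4C.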

Other observations

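The make-up of the semaphorin counts differed between libraries more than their sum. All 20 semaphorins together had 4517, 4484 and 4198 counts in GFP replicates 1 to 3 and 3110, 2262 and 3325 in POU5F1B replicates 1 to 3. SEMA5A took 35.7% of them in GFP replicate 1 (95% Wilson interval 34.3 to 37.1%), 34.6% in replicate 2 (33.2 to 36.0%) and 5.81% in replicate 3 (5.14 to 6.56%), and 1.83% (1.42 to 2.37%), 2.34% (1.80 to 3.05%) and 3.67% (3.08 to 4.36%) in POU5F1B replicates 1 to 3. SEMA3A took 44.04% in GFP replicate 3 (42.5 to 45.6%), 5.26% in POU5F1B replicate 3 (4.55 to 6.08%) and 0.0643 to 0.155% elsewhere. Such shares of counts favour long transcripts, and the intervals cover counting error only.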
